A study of Mus musculus with 8 samples.

Results

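The interferon-induced gene families were taken as all genes of the array annotation whose symbols begin with Ifi, Ifit, Ifitm, Oas, Oasl, Gbp, Irf, Stat, Isg or Mx and a digit, with Usp18, Rsad2, Rtp4 and Xaf1 added. The rule named 68 of the 16593 genes on the array. It used symbols only, so it also took in Irf2bp1 and Irf2bpl, whose products are partners or relatives of an Irf2 partner and not interferon regulatory factors. The 68 genes had 110 probes, 41 genes with 1 probe and 27 with more, and each gene was read from its brightest probe by mean over 8 arrays.

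Interferons are secreted proteins that bind receptors on nearly all cells. Type I interferons, through the kinases Jak1 and Tyk2, assemble a complex holding Stat2 and Irf9 that binds the interferon-stimulated response element (ISRE) in front of genes such as the Ifit, Oas and Mx families, whose products restrict viruses. Interferon-gamma acts mainly through the gamma-activated site (GAS) and induces Irf1 and, with it, guanylate-binding proteins (Gbp) and immunity-related GTPases. In the lung the Ifitm proteins, membrane factors that limit viral entry, are known for protection against influenza virus.

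RNA of whole lungs of C57BL/6 mice at embryonic day 18.5 was measured on 8 single-colour Illumina MouseRef-8 v2 arrays. Snx5-/- lungs after the air-breathing test (air), Snx5+/+ lungs after it, Snx5-/- lungs without it (non-air) and Snx5+/+ lungs without it had 2 arrays each. Snx5-/- mice are homozygous for a gene trap, a beta-geo cassette in an intron of Snx5, made from 1 embryonic stem cell line and backcrossed to C57BL/6. In the test, pups delivered by caesarean section were cleared of lung fluid and kept warm in room air, and Snx5-/- pups often failed to keep breathing. How long the lungs on these arrays had been aired, and whether lungs were pooled for an array, is not stated in the labels or methods. The values are quantile normalized log2 intensities, and a probe counts as detected at a detection p-value under 0.01. Fewer cells of a type and less RNA per cell cannot be told apart in whole-lung RNA.

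Some arrays and labels stood against each other. The deposited tables conflict on air: each column of non-normalized intensities followed the log2 values labelled with that genotype and replicate but the other air state (with a rank correlation of 0.99975 or more, and of 0.972 or less with every other column). The detection p-values followed the labels of the log2 table, which were used here. Under the labels of the intensities air and non-air change places, with small differences in value that move some calls near the threshold, while the contrast of genotypes averaged over both air states keeps its 4 calls. The interaction of Gbp10, called below, is then not called (adjusted p = 0.0711). The non-air Snx5-/- samples also carry a description that names wild type, against their titles and genotype fields. Each array detected 12209 to 12685 probes, or 47.5% to 49.4%. The Snx5 probe was below background on both Snx5-/- air arrays (7.29 and 7.10), and the Snx5+/+ air arrays had 7.84 and 8.42. It was called lower in Snx5-/- air lungs (adjusted p = 0.0103, limma). A probe was tested only with a group mean above 8, which here only the Snx5+/+ group had. The direction of this call was thus set by the filter. Without air the Snx5 probe was not tested. It is near background everywhere, and where it lies with respect to the trap was not looked at. The 10 lung markers, among them genes of surfactant and of alveolar epithelium, were detected on all 8 arrays. Their median log2 fold change of Snx5-/- over Snx5+/+ was -0.22 after air and -0.41 without air. Ager, a marker of alveolar type I cells, was called lower after air, Aqp5, a water channel of these cells, without air, and both of them and Col1a1, a collagen of mesenchymal cells, in the average. Of all genes tested, 1.32%, 0.373% and 1.53% were called lower in these contrasts. Of the 10 lung markers, 3 had a positive log2 fold change after air, 0 without air and 3 in the average. The part of this in the members' levels was not tested.

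Both Snx5-/- air arrays also stood apart in sex-linked genes. Xist had 7.83 and 7.77 on them and 11.82 to 12.58 on the other 6 arrays. Eif2s3y, on the Y chromosome, had 11.81 and 11.73 on them and 7.13 to 7.40 on the others. Sex and the Snx5-/- air group therefore cannot be told apart, and this bears on each comparison below that holds this group. Results that rest on this group cannot be given without it. The 2 comparisons that do not hold it were fitted again without both arrays. This keeps their fold changes and alters only the spread shared in the fit, so it is no test of a part of sex. The 2 members called lower in non-air Snx5-/- lungs, named below, were again the 2 called. The 3 calls for air in Snx5+/+ lungs were lost.

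Of the 68 members, 41 were tested in all 6 comparisons, because their mean log2 intensity was above 8 in at least 1 group compared. The other 27 were detected on none of the 8 arrays and had means of 7.18 to 7.88 over all arrays. They were 6 Gbp genes (Gbp2b, Gbp4, Gbp5, Gbp8, Gbp9 and Gbp11), 7 Ifi genes (Ifi202b, Ifi204, Ifi205, Ifi209, Ifi214, Ifi27l2b and Ifi44l), 7 Oas genes (Oas1a, Oas1c, Oas1d, Oas1e, Oas1f, Oas1h and Oas3), and Ifit1, Ifitm10, Irf4, Mx1, Stat4, Stat5b and Xaf1. No statement about a change is made for these. The 41 tested members had means of 8.17 to 15.26, and 38 were detected on all 8 arrays. A call needed an adjusted p under 0.05 over all probes tested and a change of more than 1.28-fold. By this rule 12 members were called in at least 1 comparison.

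RefSeq promoters of build GRCm38.p6 were found for 51 of the 68 members. In the 250 bases before an annotated start, the ISRE core GAAANNGAAA (N is any base, either strand) lay in 19 of the 51 members, or 37.3%, and in 3.46% of all 27025 genes with a promoter entry. The GAS letters TTCNNNGAA lay in 11 members, or 21.6%, and in 8.13% of all genes. Among the 9 called members with an entry, 6 held an ISRE core, and among the 18 with an entry that were never tested, 9 did. A match is a run of letters and not a measured binding site. Sequences are shown for 4 members that hold an ISRE core and whose genotype difference depended on air. That of Rsad2, which was lower in Snx5-/- lungs in both air states, is shown too. No result on expression rests on these sequences. Ifi47, whose genotype difference also depended on air, has an entry without a match and is not shown. Capitals mark ISRE cores, which overlap in Gbp3, and none of the 5 holds the GAS letters.
Ifit3, chr19:34583279-34583528, plus strand: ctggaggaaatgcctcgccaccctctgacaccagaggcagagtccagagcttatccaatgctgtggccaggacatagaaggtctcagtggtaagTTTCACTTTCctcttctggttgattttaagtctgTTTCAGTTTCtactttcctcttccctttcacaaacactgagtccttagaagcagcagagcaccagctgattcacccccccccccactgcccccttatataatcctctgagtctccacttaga
Gbp2, chr3:142620413-142620662, plus strand: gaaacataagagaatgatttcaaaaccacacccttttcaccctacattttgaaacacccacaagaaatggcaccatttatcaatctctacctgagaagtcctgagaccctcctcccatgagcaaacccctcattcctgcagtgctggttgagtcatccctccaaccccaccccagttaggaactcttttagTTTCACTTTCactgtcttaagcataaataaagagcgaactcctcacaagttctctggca
Gbp3, chr3:142559794-142560043, plus strand: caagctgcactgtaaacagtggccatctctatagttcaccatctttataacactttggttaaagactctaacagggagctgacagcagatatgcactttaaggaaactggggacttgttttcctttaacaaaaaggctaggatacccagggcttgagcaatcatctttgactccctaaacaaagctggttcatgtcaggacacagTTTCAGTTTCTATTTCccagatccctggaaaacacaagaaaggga
Stat2, chr10:128270248-128270497, plus strand: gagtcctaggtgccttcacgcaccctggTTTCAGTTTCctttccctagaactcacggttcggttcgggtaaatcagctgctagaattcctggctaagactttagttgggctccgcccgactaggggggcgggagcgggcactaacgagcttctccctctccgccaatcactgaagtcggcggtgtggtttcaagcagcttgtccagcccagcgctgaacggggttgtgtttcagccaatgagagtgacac
Rsad2, chr12:26456453-26456702, minus strand: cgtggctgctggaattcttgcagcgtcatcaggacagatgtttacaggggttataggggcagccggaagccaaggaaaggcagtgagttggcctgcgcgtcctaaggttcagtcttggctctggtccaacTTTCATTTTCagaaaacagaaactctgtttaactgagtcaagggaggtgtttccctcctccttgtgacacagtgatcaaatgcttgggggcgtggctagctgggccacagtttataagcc
Ifit3 held its cores 156 and 122 bases before the start, and Gbp2 its core 59 bases before it. Gbp3 held a pair at 45 and 39 bases before its first start and none before its second. In Stat2 the core lay 222 bases and in Rsad2 120 bases before the start. Ifi47 held neither motif. Irf1 held the GAS letters 90 bases before its first start, Ifitm6 10 bases before its start, and Gbp7 held an ISRE core at 53 bases with GAS letters at 106 and 87 bases.

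**Figure D1:**
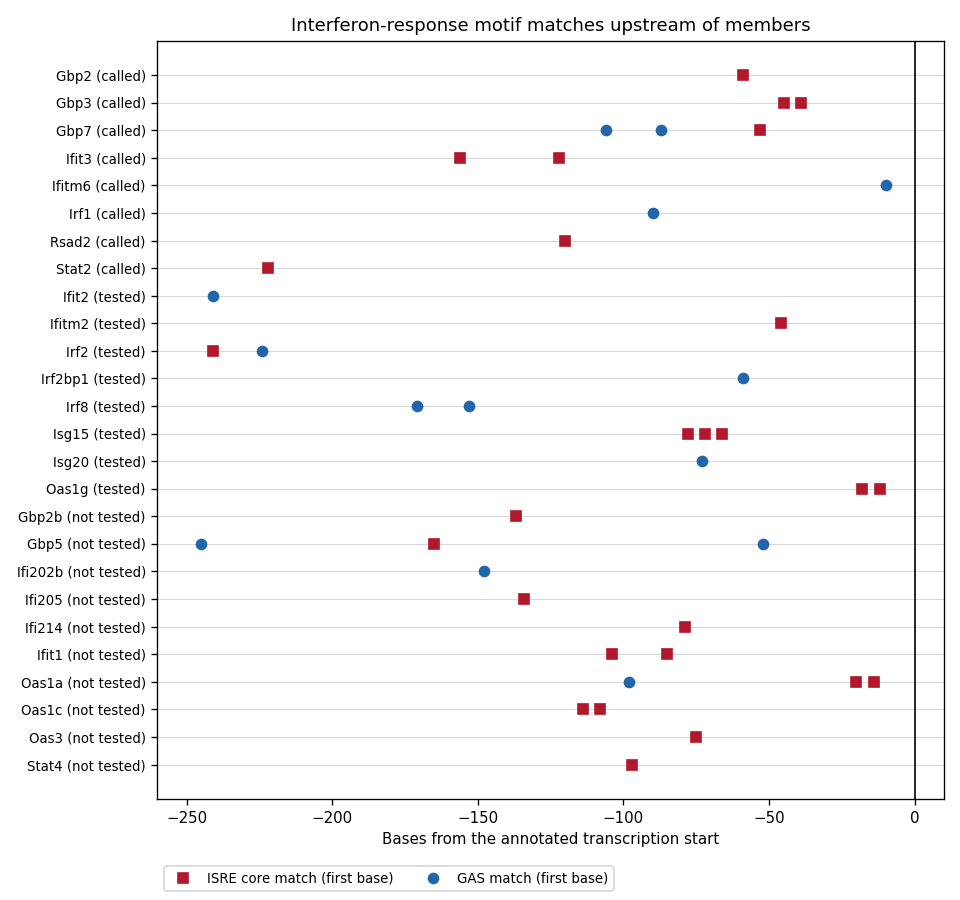
Matches to the ISRE core (squares) and to the GAS letters (circles) in the 250 bases before the annotated start of each member that holds one, at the distance of their first base from the start in bases, with both motifs sought on both strands. Members called in at least 1 comparison come first, then tested and never tested members. ISRE cores lay in 19 members, from 12 to 241 bases before the start.

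More members were higher in Snx5-/- lungs after air than without it. After air, 35 of the 41 members had a positive log2 fold change of Snx5-/- over Snx5+/+ lungs, with a median of 0.26, and all 9472 genes tested had a median of 0.00. Without air, 17 of 41 were positive with a median of -0.04, and the median of all 9386 genes tested was 0.00. In air lungs 8 members rose and 1 fell, where 1.05% of all genes tested were called higher and 1.32% lower. In non-air lungs 2 members fell, where 0.373% of all genes tested were called lower. There limma called 0 members higher, where 0.266% of all genes were. At an unadjusted p under 0.05, 4 members were higher and 11 lower, where 13.8% of all genes tested passed in either direction. Gbp10, among the 11, passed the intensity cutoff there only through Snx5+/+ lungs, which set its sign. The methods' t-test gave 0 higher and 5 lower. The members that rose in air lungs were 4 guanylate-binding proteins, an Ifit, an immunity-related GTPase, an Ifitm and Irf1.

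The arrays were also compared by their order alone. Both Snx5-/- air arrays lay above both Snx5+/+ air arrays in 26 of 41 members, where 24.5% of all genes did, and below them in 5, where 24% did. In non-air lungs both Snx5-/- arrays lay above both Snx5+/+ arrays in 7 members, where 21.8% of all genes did, and below them in 17, where 22.8% did. With 2 arrays against 2, an exact permutation test of a single gene cannot go below 0.333, so the calls rest on the spread that limma shares over all probes.

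**Figure D2:**
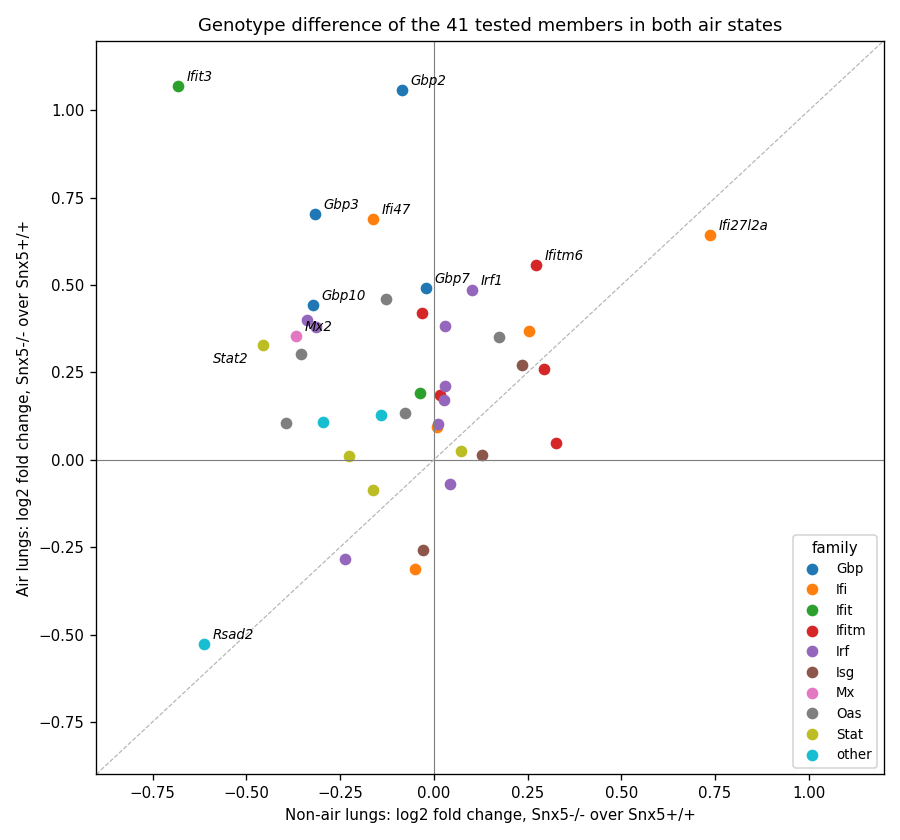
Log2 fold change of Snx5-/- over Snx5+/+ lungs without air (horizontal axis) and after air (vertical axis) for the 41 tested members, coloured by family, with the 12 called members named and a dashed line of equal differences. Most points lie above the line, Ifit3 is at -0.68 without air and 1.07 after air, and Rsad2 is below 0 on both axes.

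The guanylate-binding proteins are large GTPases that interferon-gamma induces strongly and that attack the vacuoles of intracellular pathogens. All 4 tested Gbp genes rose in air Snx5-/- lungs, with log2 fold changes of 0.44 to 1.06 and a median of 0.60. Without air the same 4 genes had log2 fold changes of -0.32 to -0.02, and none was called. The value of -0.32 for Gbp10 there is not a measured size, because its Snx5-/- arrays were below background. Its sign there was set by the filter, since Gbp10 passed the intensity cutoff of 8 only through Snx5+/+ lungs.

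Gbp2 had log2 intensities of 12.11 and 11.93 in Snx5-/- and 11.01 and 10.92 in Snx5+/+ air lungs. In non-air lungs it had 11.15 and 11.04 in Snx5-/- and 11.19 and 11.17 in Snx5+/+. Both Snx5-/- air arrays lay above all 6 other arrays. The log2 fold change of Snx5-/- over Snx5+/+ was 1.06 ± 0.10 (SE) in air lungs (adjusted p = 0.000235, limma) and -0.08 without air (adjusted p = 0.764), and the call in air lungs was kept without each of the 8 arrays in turn. The other 2 probes of Gbp2 were detected on none of the 8 arrays. With the mean of its 3 probes, the log2 fold change in air lungs was 0.40 (adjusted p = 0.0299), and 3 other calls of Gbp2 given below were lost, with 0.17 in the average of both air states (adjusted p = 0.156), 0.28 for air in Snx5-/- lungs (adjusted p = 0.193) and 0.46 for the interaction (adjusted p = 0.161).

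Gbp3 had 11.76 and 11.58 in Snx5-/- and 10.98 and 10.96 in Snx5+/+ air lungs, a log2 fold change of 0.70 ± 0.10 (SE, adjusted p = 0.00391, limma). In non-air lungs it had 11.03 and 11.13 in Snx5-/- and 11.37 and 11.42 in Snx5+/+. The Snx5-/- arrays were the higher ones after air and the lower ones without it, and the difference without air was not called (log2 fold change -0.32, adjusted p = 0.25). A second Gbp3 probe gave 0.79 in air lungs (adjusted p = 0.00207) and -0.51 without air (adjusted p = 0.0622). The call of Gbp3 in air lungs was lost without Snx5+/+ air replicate 2 (adjusted p = 0.0578).

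Gbp7 had 10.32 and 10.45 in Snx5-/- and 9.85 and 9.94 in Snx5+/+ air lungs, with 10.09 and 9.87 in Snx5-/- and 10.03 and 9.97 in Snx5+/+ non-air lungs. Its log2 fold change in air lungs was 0.49 ± 0.11 (SE, adjusted p = 0.0421, limma), and a second probe gave 0.42 and was not called (adjusted p = 0.247). Gbp10, whose levels were near background, had 8.46 and 8.48 in Snx5-/- and 8.07 and 7.98 in Snx5+/+ air lungs, where it was detected on 1 of 2 arrays, a log2 fold change of 0.44 ± 0.10 (SE, adjusted p = 0.0363). In non-air lungs Gbp10 had 7.97 and 7.91 in Snx5-/-, below background on both arrays, and 8.25 and 8.27 in Snx5+/+. Gbp7 and Gbp10 each lost the call in air lungs when any 1 of 6 arrays was left out, with adjusted p up to 0.274 (without Snx5+/+ air replicate 1) and 0.322 (without Snx5+/+ air replicate 2). With the replicate number as a block neither was called in air lungs (adjusted p = 0.0648 for Gbp7 and 0.0582 for Gbp10).

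Ifit3, one of the Ifit proteins that bind viral RNA, was the member called in opposite directions between genotypes. It had 11.05 and 11.17 in Snx5-/- and 9.94 and 10.14 in Snx5+/+ air lungs, and 9.97 and 9.86 in Snx5-/- and 10.62 and 10.58 in Snx5+/+ non-air lungs. It was thus high on both Snx5-/- air arrays, intermediate on both Snx5+/+ non-air arrays and lower on the other 4. Its log2 fold change of Snx5-/- over Snx5+/+ was 1.07 ± 0.11 after air and -0.68 ± 0.11 without air (SE, adjusted p = 0.000284 and 0.0171, limma). The call after air was kept without each of the 8 arrays in turn. The lower level without air was not called without either Snx5-/- non-air array or Snx5+/+ non-air replicate 2 (adjusted p up to 0.277), nor with the mean of the gene's probes (log2 fold change -0.45, adjusted p = 0.0634). The other 2 Ifit3 probes, near background, had the same directions, and 1 of them was called higher after air (log2 fold change 0.57, adjusted p = 0.0162). Ifit2 had 10.59 and 10.24 in Snx5-/- and 10.17 and 10.28 in Snx5+/+ air lungs, groups that overlapped, and was called in no comparison.

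Of the 5 tested Ifi genes, Ifi47 rose in air Snx5-/- lungs. Ifi47 encodes an immunity-related GTPase of the same interferon-gamma programme as the Gbp genes. It had 9.91 and 9.67 in Snx5-/- and 9.06 and 9.15 in Snx5+/+ air lungs, and 9.17 and 9.31 in Snx5-/- and 9.37 and 9.44 in Snx5+/+ non-air lungs. The log2 fold change was 0.69 ± 0.11 in air lungs (SE, adjusted p = 0.00768, limma) and -0.16 without air (adjusted p = 0.556). The call in air lungs was lost without Snx5-/- air replicate 1 or without either Snx5+/+ air array (adjusted p up to 0.0992).

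Ifi27l2a, a small membrane protein of the Ifi27 family, differed between genotypes when both air states were averaged. It had 10.67 and 11.12 in Snx5-/- and 10.15 and 10.36 in Snx5+/+ air lungs, and 10.18 and 10.28 in Snx5-/- and 9.82 and 9.17 in Snx5+/+ non-air lungs. Snx5-/- arrays lay above Snx5+/+ arrays in both air states, and the averaged log2 fold change was 0.69 ± 0.14 (SE, adjusted p = 0.0209, limma). This call was lost when any 1 of 4 arrays was left out, with an adjusted p up to 0.114 without Snx5-/- non-air replicate 2. Ifi27 had 13.88 and 13.78 in Snx5-/- and 13.43 and 13.49 in Snx5+/+ air lungs and was not called. Its averaged log2 fold change of 0.31 had an adjusted p of 0.0415 but lay under the fold cutoff, and its second probe was called in air lungs (log2 fold change 0.47, adjusted p = 0.047). Ifi30, a lysosomal thiol reductase of antigen processing, and Ifi35 were called in no comparison.

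Ifitm proteins sit in endosomal and plasma membranes and hinder the fusion of viruses. Ifitm6 had 9.08 and 9.01 in Snx5-/- and 8.37 and 8.60 in Snx5+/+ air lungs, and 8.35 and 8.40 in Snx5-/- and 8.11 and 8.10 in Snx5+/+ non-air lungs. Snx5-/- arrays were the higher ones in both air states. The log2 fold change was 0.56 ± 0.11 in air lungs and 0.42 ± 0.07 averaged over both states (SE, adjusted p = 0.0181 and 0.0108, limma), and each call was lost without any 1 of 3 arrays, at an adjusted p up to 0.207 and 0.0735, both without Snx5+/+ air replicate 1. Ifitm3 had 15.38 and 15.49 in Snx5-/- and 15.18 and 15.33 in Snx5+/+ air lungs, and 15.25 and 15.11 in Snx5-/- and 15.32 and 15.02 in Snx5+/+ non-air lungs, without a call in any comparison. Ifitm1, Ifitm2 and Ifitm5 were not called either.

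Among the 9 tested Irf genes, Irf1, the transcription factor that interferon-gamma induces and that drives antigen presentation genes, was the 1 called between genotypes. Irf1 had 13.26 and 13.21 in Snx5-/- and 12.83 and 12.68 in Snx5+/+ air lungs, and 12.96 and 12.95 in Snx5-/- and 12.86 and 12.84 in Snx5+/+ non-air lungs. Its log2 fold change was 0.49 ± 0.10 in air lungs (SE, adjusted p = 0.0282, limma). The probes of Irf1 disagree: of the other 3 tested probes, 1 also gave 0.49 and was called (adjusted p = 0.0462), and the other 2 gave -0.14 each and were not (adjusted p = 0.656 and 0.665), and the mean of its probes gave 0.19 (adjusted p = 0.372). The call was lost when any 1 of 6 arrays was left out, at an adjusted p up to 0.307 without Snx5+/+ air replicate 2. Irf7, which amplifies type I interferon production, had 9.01 and 9.13 in Snx5-/- and 8.65 and 8.69 in Snx5+/+ air lungs, and 8.78 and 8.61 in Snx5-/- and 8.92 and 9.15 in Snx5+/+ non-air lungs. The groups did not overlap in either state, in opposite directions, and neither difference was called (adjusted p = 0.11 after air and 0.26 without air). Irf2, Irf2bp1, Irf2bpl, Irf3, Irf5, Irf8 and Irf9 were not called. Irf2, an antagonist of Irf1, had 13.64 and 13.47 in Snx5-/- and 13.66 and 13.58 in Snx5+/+ air lungs.

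Rsad2 was the member called lower in Snx5-/- lungs both after air and without it. It encodes viperin, an enzyme that makes a nucleotide stopping viral RNA synthesis. Rsad2 had 11.10 and 11.10 in Snx5-/- and 11.62 and 11.64 in Snx5+/+ air lungs, and 10.63 and 10.62 in Snx5-/- and 11.32 and 11.14 in Snx5+/+ non-air lungs. Snx5-/- arrays were the lower ones in both air states. The log2 fold change was -0.53 ± 0.10 after air, -0.61 ± 0.10 without air and -0.57 ± 0.07 averaged over both (SE, adjusted p = 0.0188, 0.0206 and 0.00122, limma). The averaged call was kept without each of the 8 arrays in turn, with adjusted p up to 0.013. The call in each air state was lost without any 1 of 4 arrays, at an adjusted p up to 0.176 after air (without Snx5+/+ air replicate 2) and 0.254 without air (without Snx5-/- non-air replicate 2). Of the other added genes, Usp18, which cleaves Isg15 from proteins and damps the type I receptor, had 11.81 and 11.84 in Snx5-/- and 11.72 and 11.72 in Snx5+/+ air lungs, and 11.80 and 11.90 in Snx5-/- and 12.10 and 12.20 in Snx5+/+ non-air lungs. Usp18 and Rtp4, a chaperone of membrane receptors, were not called.

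In the contrast averaged over both air states, 3 members rose (Gbp2, Ifi27l2a and Ifitm6) and 1 fell (Rsad2), where 0.882% of all genes tested were called higher and 1.53% lower. The averaged log2 fold change of Gbp2 was 0.49 ± 0.07 (SE, adjusted p = 0.00383, limma). The members' median was 0.07 with 28 of 41 positive, and that of all 9635 genes tested was 0.01.

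**Figure D3:**
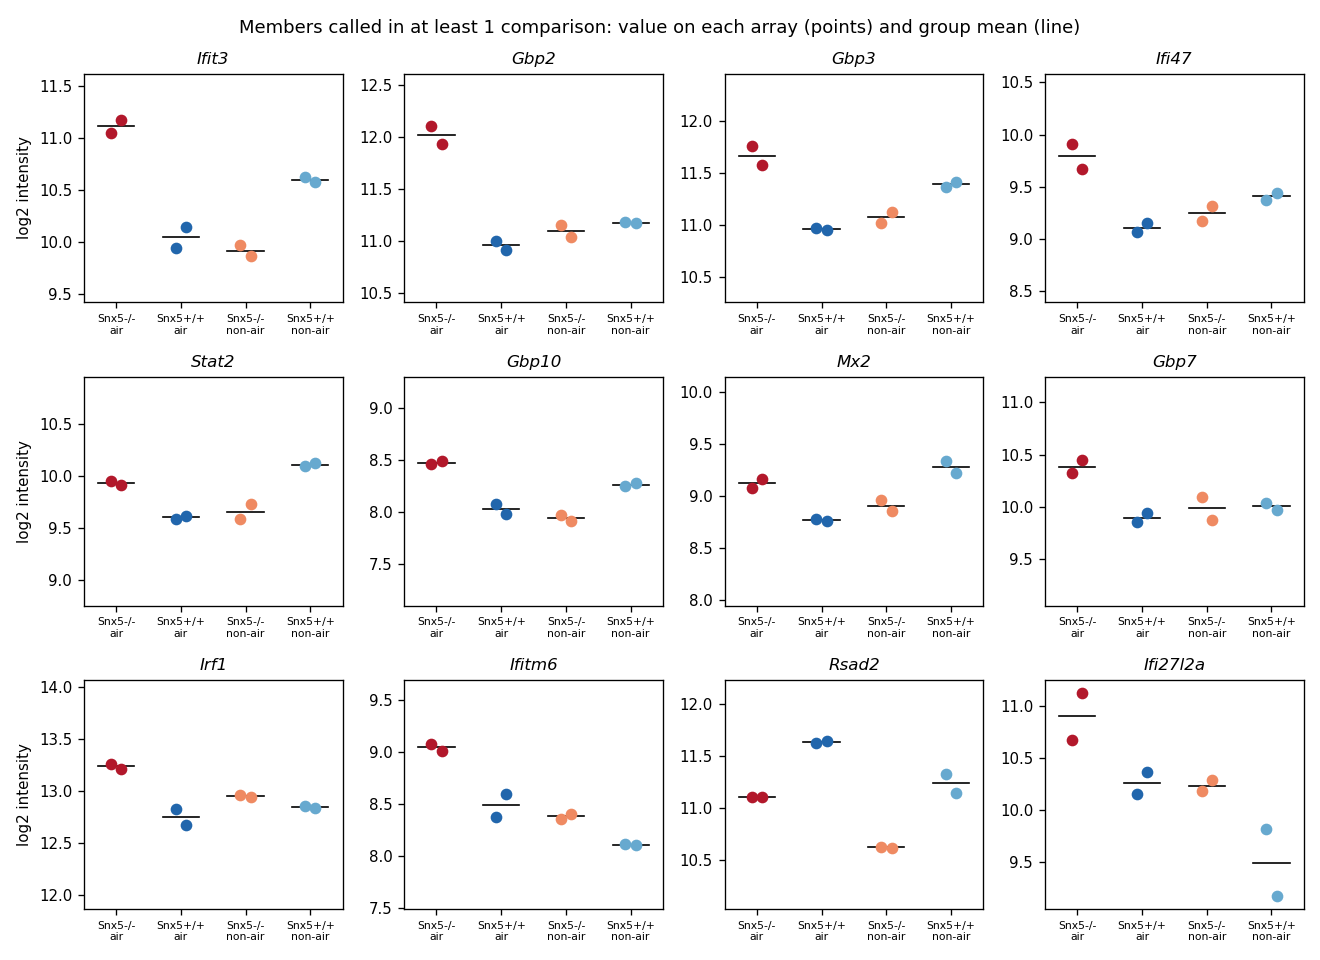
Log2 intensity on each array (points) and group mean (line) of the 12 members called in at least 1 comparison, ordered by their interaction of genotype and air, each panel spanning the same range of 2.2 log2 units. Snx5-/- lie left of Snx5+/+ lungs within each air state, and the Snx5-/- air arrays of Gbp2, Gbp3 and Ifi47 lie above all other arrays while those of Rsad2 lie below the Snx5+/+ air arrays.

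The air response was compared within each genotype. In Snx5-/- lungs, 33 of 41 members had a positive log2 fold change of air over non-air lungs, with a median of 0.18 and a median of 0.00 over all 9416 genes tested. In Snx5+/+ lungs, 14 of 41 were positive with a median of -0.11, and the median of all 9426 genes was 0.00. These 2 comparisons share no arrays with each other, but each shares its air and non-air arrays with the genotype comparisons above, so they restate the same 8 values per gene.

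In Snx5-/- lungs 5 members rose with air, where 0.605% of all genes tested were called higher. The log2 fold change of air over non-air was 1.19 ± 0.11 for Ifit3, 0.93 ± 0.10 for Gbp2, 0.66 ± 0.11 for Ifitm6 and 0.59 ± 0.10 for Gbp3 (SE), with adjusted p of 0.000288, 0.00158, 0.0155 and 0.0239. Gbp10 was at least 1.40-fold higher in air Snx5-/- lungs, since both non-air Snx5-/- arrays were below background (adjusted p = 0.0302, limma). In this comparison Gbp10 passed the intensity cutoff of 8 only through its air group. The direction of its call, counted among the 5 and among the 16 below, was thus set by the filter. Here limma called 0 members lower, where 0.0956% of all genes were. At an unadjusted p under 0.05, 16 members were higher and 1 lower, where 9.91% of all genes tested passed in either direction. The methods' t-test gave 6 higher and 0 lower. The calls of Ifit3 and Gbp2 were kept without each of the 8 arrays in turn, and those of Ifitm6, Gbp3 and Gbp10 were lost without 4, 6 and 6 of the arrays, at adjusted p up to 0.214 and 0.287 (both without Snx5-/- non-air replicate 1) and 0.329 (without Snx5-/- non-air replicate 2). With the replicate number as a block Gbp10 was not called (adjusted p = 0.0541).

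In Snx5+/+ lungs 3 members fell with air, where 0.191% of all genes tested were called lower. They were Ifit3, Stat2 and Mx2, and Ifit3 rose with air in Snx5-/- lungs. The log2 fold change of air over non-air was -0.56 ± 0.11 for Ifit3, -0.51 ± 0.10 for Stat2 and -0.51 ± 0.10 for Mx2 (SE, adjusted p = 0.0471, 0.0461 and 0.0487, limma). Stat2, a part of the transcription factor complex that type I interferon forms, had 9.58 and 9.61 in air and 10.09 and 10.12 in non-air Snx5+/+ lungs, and 9.95 and 9.91 in air and 9.58 and 9.72 in non-air Snx5-/- lungs. Mx2, a dynamin-like antiviral GTPase, had 8.78 and 8.76 in air and 9.34 and 9.22 in non-air Snx5+/+ lungs, and 9.08 and 9.17 in air and 8.96 and 8.86 in non-air Snx5-/- lungs. Air arrays of Stat2 and Mx2 lay below the non-air arrays in Snx5+/+ lungs and above them in Snx5-/- lungs, where neither gene was called. All 3 adjusted p lay close to the threshold, and each call was lost when any 1 of 7 arrays was left out, at adjusted p up to 0.241 for Ifit3 (without Snx5+/+ air replicate 1) and 0.398 for Stat2 and 0.46 for Mx2 (without Snx5+/+ air replicate 2). The call was kept only without Snx5+/+ non-air replicate 1. Without both Snx5-/- air arrays, 0 members were called here. Limma called 0 members higher, where 0.605% of all genes were. At an unadjusted p under 0.05, 3 members were higher and 12 lower, where 16.8% of all genes tested passed in either direction. The methods' t-test gave 1 higher and 5 lower. A second probe of Gbp3 and a second probe of Usp18 were also called lower here (log2 fold change -0.64 and -0.59, adjusted p = 0.017 and 0.0455).

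The difference between both genotype contrasts was tested directly, as the genotype log2 fold change after air minus that without air. It was positive in 32 of 41 members, with a median of 0.23 and a median of 0.00 over all 9635 genes tested. Here 6 members were called above 0, where 0.249% of all genes were: Ifit3 (1.75 ± 0.15), Gbp2 (1.14 ± 0.15), Gbp3 (1.02 ± 0.15), Ifi47 (0.85 ± 0.16), Stat2 (0.78 ± 0.14, all SE) and Gbp10, for which no size is given because its non-air Snx5-/- arrays were below background. Their adjusted p were 0.00019, 0.00395, 0.00788, 0.0459, 0.0344 and 0.0337 (limma). Limma called 0 members below 0, where 0.239% of all genes were. At an unadjusted p under 0.05 there were 17 above 0 and 0 below, where 12.0% of all genes tested passed in either direction. The calls of Ifit3 and Gbp2 were kept without each of the 8 arrays in turn, that of Gbp2 only for its brightest probe. Gbp3 lost its call without 3 arrays, with an adjusted p up to 0.0709 without Snx5-/- non-air replicate 1. Ifi47 lost it without 6 arrays and Stat2 without 7 (up to 0.265 and 0.22, both without Snx5-/- non-air replicate 1), and Gbp10 without 7 (up to 0.243 without Snx5+/+ air replicate 2). With the replicate number as a block, Ifit3, Gbp2 and Gbp3 were called, and Ifi47, Stat2 and Gbp10 were not, at adjusted p of 0.0771, 0.0598 and 0.0601.

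None of the tested Oas and Isg genes had a called interaction, and Stat2 was the 1 Stat gene that had. Some members of the Oas family make oligoadenylates that switch on RNase L, and which of the tested ones do was not looked at. All 5 tested Oas genes had positive log2 fold changes in air lungs, of 0.11 to 0.46, and interactions of 0.18 to 0.66, and 0 of them were called in any comparison. Oasl2 had 12.31 and 12.29 in Snx5-/- and 11.99 and 12.02 in Snx5+/+ air lungs, and 11.98 and 12.28 in Snx5-/- and 12.31 and 12.65 in Snx5+/+ non-air lungs. Isg15, the ubiquitin-like protein that interferon attaches to others, had 10.30 and 10.74 in Snx5-/- and 10.26 and 10.25 in Snx5+/+ air lungs, and 10.19 and 10.49 in Snx5-/- and 10.30 and 9.90 in Snx5+/+ non-air lungs. Its interaction was 0.04, and the Isg genes ran from -0.23 to 0.04. Isg20l2, the brightest Isg gene, had 11.84 and 11.89 in Snx5-/- and 11.87 and 11.83 in Snx5+/+ air lungs. In non-air lungs it had 11.89 and 12.08 in Snx5-/- and 11.91 and 11.81 in Snx5+/+, and it was called in no comparison. Stat3, which answers interleukin signals more than interferon, had 12.52 and 12.42 in Snx5-/- and 12.46 and 12.46 in Snx5+/+ air lungs. Stat3, Stat5a and Stat6 were called in no comparison.

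**Figure D4:**
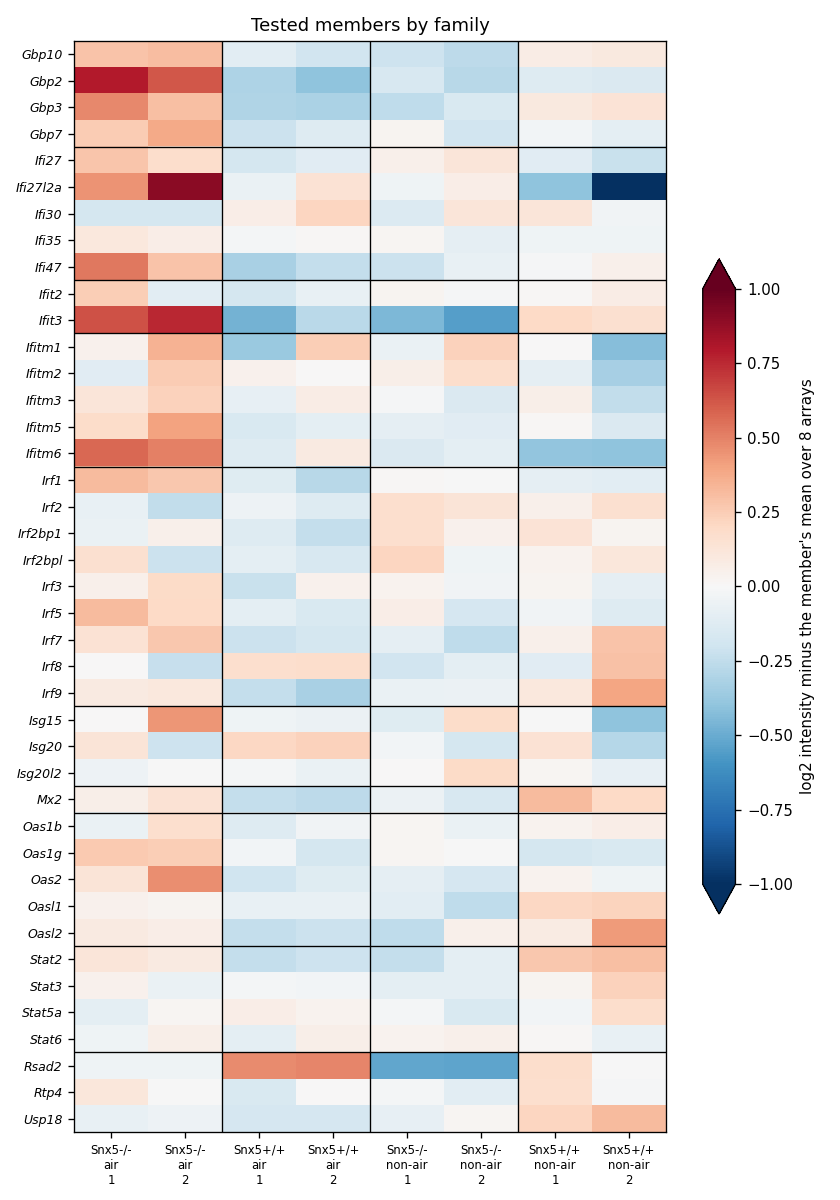
Log2 intensity of each tested member on each of the 8 arrays, minus the mean of that member over the arrays (red higher, blue lower, colours ending at 1 log2 unit), with families parted by lines and arrays by group. The Gbp rows, Ifi47 and Ifit3 are red on both Snx5-/- air arrays, and Rsad2 is red on both Snx5+/+ air arrays and blue on both non-air Snx5-/- arrays.

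The ligands, receptors and sensors of the pathway were read from separate lists of genes. Of 17 interferon genes on the array, 16 were detected on none of the 8 arrays, among them Ifnb1 and Ifng, and Ifna6 had 8.32 and 8.59 in Snx5-/- and 8.30 and 8.67 in Snx5+/+ air lungs without a call. Of the 12 receptors, kinases and inhibitors on the array, 10 were tested and limma called 0 in any comparison. In air Snx5-/- lungs 2 were higher at an unadjusted p under 0.05, where 15.2% of all genes tested passed in either direction. Tyk2, a kinase of the type I receptor, had 11.11 and 11.37 in Snx5-/- and 11.03 and 11.03 in Snx5+/+ air lungs, with an adjusted p of 0.428. Of the 17 sensors and adaptors, 13 or 14 were tested and limma called 0 in any comparison. At an unadjusted p under 0.05, 1 sensor or adaptor was higher in Snx5-/- air lungs and 4 had an interaction above 0. Of all genes tested, 15.2% and 12.0% passed there in either direction.

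A further list of 39 interferon-induced genes on the array, chosen with earlier results of these data known, was counted in the same way. In air lungs 8 of 30 tested rose in Snx5-/- and 0 fell, where 1.05% of all genes tested were called higher and 1.32% lower. At an unadjusted p under 0.05 (limma), 10 were higher and 0 lower, where 15.2% of all genes tested passed in either direction. The 8 were the immunity-related GTPases Igtp and Irgm2, the antigen-processing genes Psmb9 and Tap1, Parp14, Trim30a, Phf11d and Nlrc5. Nlrc5 is the transactivator of class I histocompatibility genes. Nlrc5 had 9.60 and 9.38 in Snx5-/- and 7.72 and 7.43 in Snx5+/+ air lungs, below background on both Snx5+/+ arrays, so that it was at least 2.81-fold higher (adjusted p = 1.45e-05, limma). It was below background on all 4 non-air arrays too. In air lungs Nlrc5 passed the intensity cutoff of 8 only through its Snx5-/- group. With Snx5+/+ lungs under the cutoff, Nlrc5 could be tested only if higher in Snx5-/- lungs. The direction of its call, counted among the 8, was thus set by the filter. Irgm2 had 11.83 and 11.78 in Snx5-/- and 10.98 and 10.91 in Snx5+/+ air lungs, and 11.36 and 11.43 in Snx5-/- and 11.62 and 11.67 in Snx5+/+ non-air lungs, a log2 fold change of 0.86 ± 0.10 in air lungs (SE, adjusted p = 0.000632). The interaction was called above 0 for Irgm2, Igtp, Parp14 and Tap1, where 0.249% of all genes tested were. It was also called above 0 for Nlrc5, with the limits of background and filter given above. In Snx5+/+ lungs 2 of 28 fell with air, Parp14 and Irgm2, where 0.191% of all genes tested were called lower. In non-air lungs 1 of 28 tested, Lgals3bp, fell in Snx5-/- lungs (11.12 and 11.07, with 11.80 and 11.82 in Snx5+/+, adjusted p = 0.00706). There 0.373% of all genes tested were called lower.

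Markers of other cells moved with some of these groups. Neutrophil markers, 8 genes on the array with Elane and Mpo below background on every array, had a summed log2 level of 14.50 to 14.74 in Snx5-/- and 13.86 to 13.94 in Snx5+/+ air lungs, and of 13.80 to 13.83 in Snx5-/- and 12.78 to 13.33 in Snx5+/+ non-air lungs. They were thus higher in Snx5-/- and after air. In Snx5-/- air lungs limma called 2 of 6 tested higher (S100a9 and Retnlg), where 1.05% of all genes tested were. Without air it called S100a9 higher, where 0.266% were, and in the average S100a8, S100a9, Retnlg and Camp, where 0.882% were. With air it called 4 higher in each genotype, where 0.605% of all genes tested were. Camp, among the 4 in Snx5+/+ lungs, passed the intensity cutoff of 8 there only through its air group. The neutrophil markers' interaction of genotype and air had a median of -0.01 with 0 of 6 called (limma, 0 at an unadjusted p under 0.05). Erythroid markers, with Hbb-bh1 below background on every array, summed to 13.15 to 13.17 in Snx5-/- and 14.16 to 14.33 in Snx5+/+ air lungs, and to 13.67 to 13.80 in Snx5-/- and 14.07 to 14.11 in Snx5+/+ non-air lungs. Alas2 and Slc4a1 were the 2 of 3 tested erythroid markers called lower in Snx5-/- air lungs, where 1.32% of all genes tested were. Without air Slc4a1 was called lower, where 0.373% of all genes tested were, and 0.266% were called higher. The third, Hbb-y, an embryonic globin, lay higher in Snx5-/- lungs, with 9.67 and 10.03 in Snx5-/- and 9.37 and 9.42 in Snx5+/+ air lungs (adjusted p = 0.112) and a call without air (10.67 and 10.57 in Snx5-/- and 9.66 and 9.43 in Snx5+/+, adjusted p = 0.0054). In the interaction 0 of 3 were called (limma). All 3 were below 0 at an unadjusted p under 0.05, where 12.0% of all genes tested passed in either direction. Macrophage and monocyte markers, with Ccr2 below background, summed to 14.80 to 15.24 in Snx5-/- and 14.88 to 15.11 in Snx5+/+ air lungs, which overlap, and to 14.69 to 14.70 in Snx5-/- and 14.99 to 15.35 in Snx5+/+ non-air lungs, which do not. Limma called 0 of 7 tested between genotypes without air. At an unadjusted p under 0.05, 3 were lower in Snx5-/-, where 13.8% of all genes tested passed in either direction. C1qc, a complement gene of macrophages, rose with air in Snx5-/- lungs (10.66 and 10.55 in air and 9.81 and 10.02 in non-air lungs, adjusted p = 0.0155). It was the 1 called of 7 tested there, where 0.605% of all genes tested were called higher. All 6 markers of T and NK cells, cells that can make interferon-gamma, were below background on every array, with sums of 10.38 to 10.42 in Snx5-/- and 10.30 to 10.31 in Snx5+/+ air lungs. Of the plasmacytoid dendritic cell markers, Ccr9 and Ly6d were below background and the 4 markers summed to 14.29 to 14.58 in Snx5-/- and 14.30 to 14.40 in Snx5+/+ air lungs. The part of these cells in the members' levels was not tested.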

How the data were processed

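Whole-lung RNA was measured on 8 Illumina MouseRef-8 v2 arrays, 2 in each of 4 groups mapped from titles and treatment fields. The authors deposited log2 intensities, quantile normalized per the methods, and these were analysed. A second deposited table holds raw probe intensities and detection p-values from the authors (the scanner software is not stated in the labels or methods); these served for detection and as an alternative. Unused per-sample columns numbered 0.

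The platform annotation named 1 gene for 23978 of 25697 probes and none for 1719. Fits used limma 3.58.1 in R 4.3.3 (lmFit, eBayes) on all 8 arrays with 4 groups and no block. Probes with a group mean above 8 in at least 1 group compared were tested, p-values were Benjamini-Hochberg adjusted over all of them, and calls required both an adjusted p below 0.05 and more than a 1.28-fold change, as in the methods. The methods combined a t-test with a median ratio test by permutation, which was not run; the t-test alone was an alternative (the methods' t-test). Other alternatives were neqc (offset 16), median scaling, other filters, a replicate block and each array left out. In a contrast of 2 groups, leaving out an array of another group keeps the fold change and alters only the shared spread. Leaving out an array of the contrast leaves 1 array in its group. A group with a probe below background on both arrays gives only a bound, taking for each dim array its own value or the dimmest detected probe, whichever was higher. Summed log2 levels of markers are log2 of summed linear intensities. Named members are those called in at least 1 comparison, the brightest of each family, those not tested, and called genes of the pathway lists; Irf7, Irf9, Ifit2, Ifi30, Isg15, Tyk2 and other uncalled genes given with a role or value were chosen after their values were seen. The methods speak of 2 biological replicates of lungs of each genotype; p-values measure the spread between these arrays, and their number limits the precision. The fit was tested on simulated data. Members and lists were chosen with earlier results of these data known. Promoters are from RefSeq (GRCm38.p6). No promoter entry was used for 17 members: Gbp4, Gbp8, Gbp9, Gbp10, Gbp11, Ifi204, Ifi27, Ifi27l2a, Ifi27l2b, Mx1, Mx2, Oas1b, Oas1d, Oas1e, Oas2, Rtp4 and Usp18.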

Additional observations from a re-analysis of the deposited data

Results flagged for a closer look

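For 6 members the genotype difference (log2 fold change of Snx5-/- over Snx5+/+) differed between air and non-air lungs by the test of the interaction. The interaction was 1.75 for Ifit3, 1.14 for Gbp2, 1.02 for Gbp3, 0.85 for Ifi47, 0.78 for Stat2 and 0.77 for Gbp10, as the difference after air minus that without air. The value of Gbp10 is the fitted one and not a measured size, since its non-air Snx5-/- arrays were below background. Under the air labels of the intensity table each of these signs turns. The sex-linked genes differ between the Snx5-/- air arrays and the other 6 arrays, and their part in these 6 values cannot be told apart from that of the group. Groups of 2 arrays are too small for a test of outlying arrays.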

How the results depend on the processing

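Of 29 called values (a member in 1 comparison), 8 were kept without each of the 8 arrays in turn, all of them of Gbp2, Ifit3 and Rsad2. Without 1 array, the members called in the order non-air genotype contrast, air genotype contrast, averaged contrast, air in Snx5+/+, air in Snx5-/- and interaction numbered 0 to 6, 3 to 11, 2 to 5, 0 to 10, 2 to 7 and 2 to 10, with 2, 9, 4, 3, 5 and 6 over all arrays. Without both Snx5-/- air arrays, chosen after seeing the data, air in Snx5+/+ lungs gave 0 and the non-air genotype contrast gave 2.

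The intensities under their own labels exchange both air states: the non-air genotype contrast gave 8 (7 higher), the air genotype contrast 2 (2 lower), and 21 of the 29 values turned sign. Without air the genotype log2 fold change of Ifit3 was then 1.07, and after air those of Ifit3, Gbp3, Gbp10, Ifi47, Gbp2 and Gbp7 were -0.68, -0.32, -0.31, -0.16, -0.0755 and -0.021. Air over non-air was then 0.51 for Mx2, 0.51 for Stat2 and 0.56 for Ifit3 in Snx5+/+ lungs, and -1.19 for Ifit3, -0.92 for Gbp2, -0.66 for Ifitm6, -0.60 for Gbp3 and -0.53 for Gbp10 in Snx5-/- lungs. The interactions were -1.75 (Ifit3), -1.14 (Gbp2), -1.02 (Gbp3), -0.85 (Ifi47), -0.78 (Stat2) and -0.72 (Gbp10), the last not called (adjusted p = 0.0711). All 3 values of Gbp10 here are fitted and not measured sizes, since 1 group in each was below background on both arrays.

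Under neqc the non-air and air genotype contrasts, air in Snx5+/+ and the interaction gave 0, 5, 0 and 2. Median scaling gave 3 for air in Snx5-/- and 3 for the interaction. The arrays of a comparison alone gave 0 without air and 0 for air in Snx5+/+. The mean of a gene's probes gave 1 without air and 5 for air in Snx5+/+, and an intensity trend gave 1 there. The methods' t-test, unadjusted and with the fold cutoff, gave 5 without air, 14 after air, 1 averaged and 6 for air in Snx5+/+. After Benjamini-Hochberg adjustment it gave 0 in each of the 5 comparisons. Its averaged contrast set all Snx5-/- against all Snx5+/+ arrays without regard to air, so the air difference entered its spread. The cause of each change was not tested. No intensity filter, a detection filter and no fold cutoff moved no count by over 1.5 times. Outside the exchanged labels, the members' median stayed between 0.19 and 0.31 after air and between -0.10 and -0.02 without air.

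With the replicate number as a block, air in Snx5+/+ gave 0 and the interaction 3; no other count moved by over 1.5 times. Deviations of same-numbered arrays correlated between -0.23 and 0.28 over 13830 probes in pairs of groups. With a single deviation per group, these values cannot tell whether same-numbered arrays shared a litter, day or chip.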
